A study of Sus scrofa with 2 samples.

Results

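COX1, COX2, COX3, ATP6, ATP8 and CYTB are the genes of the mitochondrial chromosome that encode subunits of respiratory complexes III, IV and V. They were taken by name, 6 of the 31908 features listed in the matrices, and each name matched 1 feature. Dorsal skin of healthy male farm pigs was dissociated, and a 10x Genomics 3′ v3 library was made from fresh cells and another from cryopreserved cells, which had been frozen in 90% FBS + 10% DMSO. The paper describes removal of dead cells by fluorescence-activated sorting on ethidium homodimer-1, with the scatter profile used against doublets. It gives a magnetic kit as an alternative, and its account of library construction does not say which was used. The treatment label gives none for one library and frozen for the other, while the extraction protocol attached to both mentions freezing, and the sources used here do not say whether 1 animal or several gave the cells. There was 1 library per condition, so nothing below has a replicate check, no test was possible, and an effect of freezing cannot be told apart from any other difference between these libraries.

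The mitochondrial chromosome is copied into long transcripts from both strands. The tRNA genes that lie between most of the protein-coding genes are cut out, which releases the messengers. COX1, COX2 and COX3 form the catalytic core of cytochrome c oxidase (complex IV), which passes electrons to oxygen. CYTB is the one mitochondrially encoded subunit of the cytochrome bc1 complex (complex III), and ATP6 and ATP8 belong to the membrane part of ATP synthase (complex V). The remaining subunits of these complexes are encoded in the nucleus. Mitochondrial messengers carry short poly(A) tails, which in several of them complete the stop codon and which a 3′ kit uses for priming. Mature red blood cells lack mitochondria, and the nucleated cells of skin have them.

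The 6 genes lie on the plus strand of chromosome MT (16613 bases) in the RefSeq annotation of Sscrofa11.1, the build that the authors name, and the coordinates given here are those of RefSeq. COX1 spans MT 6511 to 8055, COX2 MT 8203 to 8890, ATP8 MT 8959 to 9162, ATP6 MT 9120 to 9800, COX3 MT 9800 to 10583 and CYTB MT 15342 to 16481. Each is a single coding exon. ATP8 and ATP6 share a messenger, so the last coding bases of ATP8 are not the end of a messenger. Since a 3′ kit reads the end of a messenger, the last 45 coding bases are shown, 5′ to 3′, with the bases of the stop codon in capitals.
COX1: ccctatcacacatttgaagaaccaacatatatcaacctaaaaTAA
COX2: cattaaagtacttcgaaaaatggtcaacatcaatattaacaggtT
ATP8: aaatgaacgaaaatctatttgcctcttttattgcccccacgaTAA
ATP6: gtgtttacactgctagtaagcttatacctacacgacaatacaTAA
COX3: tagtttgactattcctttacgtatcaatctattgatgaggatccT
CYTB: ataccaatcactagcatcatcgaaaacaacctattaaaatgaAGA

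COX1, ATP8 and ATP6 end in a complete TAA and CYTB in AGA, while the genomic sequence of COX2 and COX3 stops at a single T, and the annotation states that added A residues complete the codon. COX2 is followed directly by tRNA-Lys and COX3 by tRNA-Gly. The 3 genes between them share sequence, which is shown because it bears on how reads can be given to ATP8, ATP6 and COX3. ATP8 and ATP6 overlap by 43 bases (MT 9120 to 9162), here with the ATP6 start codon and the ATP8 stop codon in capitals, and ATP6 and COX3 share 1 base, with the joined TAA and ATG in capitals in a window from MT 9788 to 9812.
ATP8 and ATP6 overlap: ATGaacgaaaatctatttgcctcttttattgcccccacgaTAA
ATP6 to COX3 junction: cgacaatacaTAATGacccaccaaa

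No tRNA gene separates ATP8, ATP6 and COX3, and ATP8 has 161 bases of its own, all of them upstream of ATP6.

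The study's maxima of 4500 genes, 30000 UMIs and 10% mitochondrial UMIs left 2775 of 4379 fresh barcodes and 4223 of 4860 cryopreserved barcodes, with a median of 11017 and 7945 UMIs per cell. The mitochondrial share is here that of the chromosome's 13 protein-coding genes, without its rRNA and tRNA genes. The study does not name the genes of its own share, so the cells it kept may differ. The limit of 10% acts on the genes described here, and values without it are given below. The filtered cells held 32274985 fresh and 36687009 cryopreserved UMIs, and 6 barcode sequences occurred in both libraries. A level is the percent of all UMIs of the filtered cells, and a ratio is the level in the cryopreserved library over that in the fresh one. Intervals are exact 95% Poisson or binomial intervals, and they cover counting error only. Reads were not analysed here, so which stretch of each gene was sequenced is not known.

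COX3 stood apart from the other 5 genes. Its fresh level was 0.676% (interval 0.673 to 0.679%) and its cryopreserved level 0.375% (0.373 to 0.377%), a log2 ratio of -0.85 (-0.86 to -0.84), so that the fresh level was 1.80-fold higher. Of the 11692 genes whose UMIs in the 2 libraries add up to 200 or more, 6.16% were lower by 0.5 or more on the log2 scale, and COX3 ranked the 101st from the lowest. COX3 was the only one of the 5 members above that floor to pass 0.5 in size in either direction, which 13.1% of these genes did.

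COX2, the subunit that takes up electrons from cytochrome c, had the highest level of the 6 in both libraries, 0.762% fresh and 0.945% cryopreserved, and its log2 ratio of 0.31 (0.30 to 0.32) turned to -0.10 when cells over the mitochondrial limit were kept. COX1, the subunit that holds the oxygen-reducing centre, was at 0.595% and 0.622%, a log2 ratio of 0.065 (0.057 to 0.074) that turned to -0.36 in the same way. These are the other core subunits of complex IV, and over all filtered cells neither had a lower level in the cryopreserved library. ATP6 was at 0.655% and 0.642%, a log2 ratio of -0.030 (-0.038 to -0.021) whose sign turned under edgeR's TMM scaling (0.0088). CYTB was at 0.342% and 0.324%, a log2 ratio of -0.081 (-0.093 to -0.069). In the filtered cells the levels of COX1, ATP6 and CYTB thus differed between the libraries by far less than that of COX3. When cells over the mitochondrial limit were kept, the log2 ratio was -0.43 for ATP6 and -0.46 for CYTB, beside -1.26 for COX3.

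**Figure D1:**
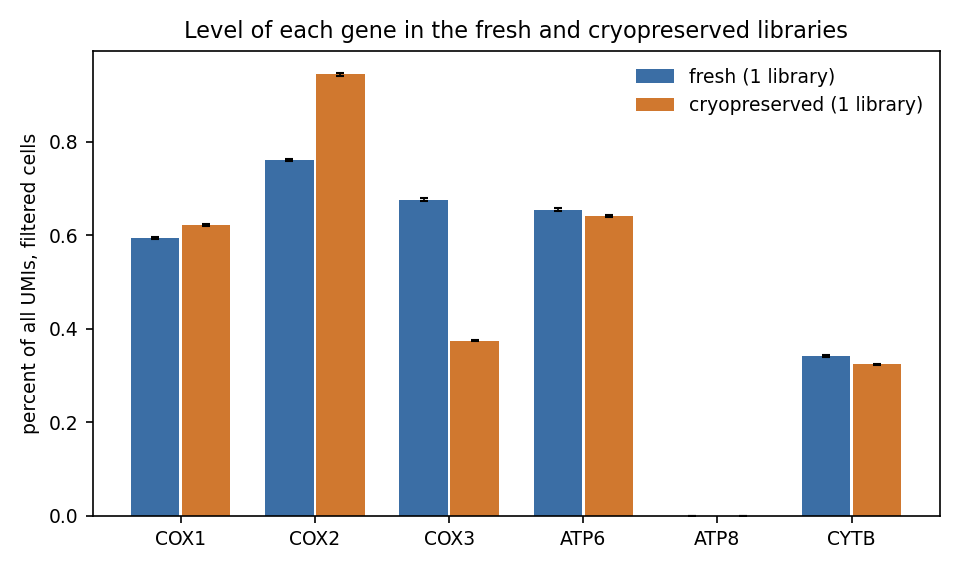
Level of each gene as percent of all UMIs of the filtered cells (y axis) in the fresh library (blue, 2775 cells) and the cryopreserved library (orange, 4223 cells), with exact 95% counting intervals as bars. COX3 is at 0.676% and 0.375% and COX2 at 0.762% and 0.945%, while ATP8 is too low to be seen.

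ATP8 was almost not counted. It had 21 UMIs in 21 fresh cells (0.757% of the cells, interval 0.469 to 1.15%) and 60 UMIs in 60 cryopreserved cells (1.42%). Its neighbour ATP6, on the same messenger, had 211473 and 235494 UMIs. The end of ATP8 is not the end of that messenger, so the count of ATP8 does not show how much RNA holds it. ATP8 was below the floor of 200 UMIs, and its log2 ratio of 1.33 has an interval from 0.59 to 2.12. Fibroblast-like cells gave the most of these UMIs, 16 fresh and 28 cryopreserved. Keratinocyte-like cells, which were fewer, gave 2 and 17. In mast-like, mural-like and T or NK-like cells ATP8 had 0 UMIs in both libraries. With 3 counts as the limit of a count of 0, this allows up to 0.000156% of UMIs in fresh mural-like cells and 0.00117% in fresh mast-like cells, which is above the level in fresh fibroblast-like cells (0.000107%). In the cryopreserved library the limit in mural-like cells (0.000154%) was a little below the level in fibroblast-like cells (0.000179%), which rests on 28 UMIs. A limit of 3 counts is lower than the upper end of the exact interval used elsewhere here. These values therefore do not show a lower ATP8 level in mural-like cells.

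A 3′ kit counts ends of molecules, and the authors did not divide by length. Divided by coding length all the same, as CPM per kilobase, the order in the fresh library was COX2 (11068), ATP6 (9621), COX3 (8626), COX1 (3850.4), CYTB (3002) and ATP8 (3.19). In the cryopreserved library COX2 (13730.1) and ATP6 (9426) kept the first places, and COX3 (4781), COX1 (4029), CYTB (2838) and ATP8 (8.02) followed in the same order. On this scale COX3 lay close to ATP6 in the fresh library and close to COX1 in the cryopreserved one. Ranked by UMIs among all genes, COX2, COX3, ATP6 and COX1 took the fresh places 5 to 8, while COX3 stood at place 16 in the cryopreserved library.

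Nearly every cell held UMIs of the 5 abundant genes. UMIs of COX3 occurred in 99.7% of fresh cells and in 99.4% of cryopreserved ones. After each cell was thinned to 1000 UMIs, which left out 27 fresh and 32 cryopreserved cells, COX3 occurred in 98.0% of fresh cells (interval 97.4 to 98.5%) and 92.7% of cryopreserved cells (91.8 to 93.4%). The shares for COX2 on the same terms were 98.6% and 98.4%, and those for CYTB 89.0% and 88.5%, so that for both of these genes the libraries lay within 1 point of each other. None of the named cell classes should lack these genes. An unnamed cluster of 24 cells, with the haemoglobin gene HBB among its top 10 genes, gave the lowest level instead, with 2 UMIs of the 6 genes in its 3 fresh cells (0.0121% of UMIs) and 49 in its 21 cryopreserved cells (0.141%).

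Summed, the 6 genes made up 3.03% of fresh and 2.91% of cryopreserved UMIs, a log2 ratio of -0.060 (-0.064 to -0.056). Their share of the UMIs of the 13 mitochondrial protein-coding genes was 85.2% (interval 85.2 to 85.3%) in both. The near-equal sums held parts that differed in opposite directions. COX3 gave 19.0% of mitochondrial UMIs in the fresh library, against 10.99% in the cryopreserved one, and COX2 gave 21.4% and 27.7%. COX1 went from 16.7% to 18.2%, ATP6 from 18.4% to 18.8% and CYTB from 9.63% to 9.48%. These shares are parts of one sum, so a lower part of COX3 by itself raises the parts of the others.

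The complex I genes, the other 7 of the chromosome, gave the remaining UMIs, 0.525% of all UMIs fresh and 0.504% cryopreserved. Of these 7, 1 was higher and 1 lower by at least 0.5, where 6.9% of all genes measured were higher and 6.16% lower by as much. ND3, the next protein-coding gene after COX3, beyond tRNA-Gly, was at 0.0850% and 0.0164%, a log2 ratio of -2.37 (-2.41 to -2.33), and it ranked the 4th lowest of the 11692 genes. ND4L, the gene after ND3, lay in the opposite direction with a log2 ratio of 0.87 (0.81 to 0.92). ND1 had a log2 ratio of 0.45, ND2, the median of this list, 0.0060, and ND4, ND5 and ND6 lay between -0.11 and 0.037. COX3 and ND3, the pair that was lower in the cryopreserved library by more than 0.5, are thus neighbours on the chromosome. The gene on the other side of COX3 is ATP6, which shares its last base with the first base of COX3. Its levels were almost equal in the filtered cells of both libraries. When cells over the mitochondrial limit were kept, the log2 ratio of ATP6 was -0.43.

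**Figure D2:**
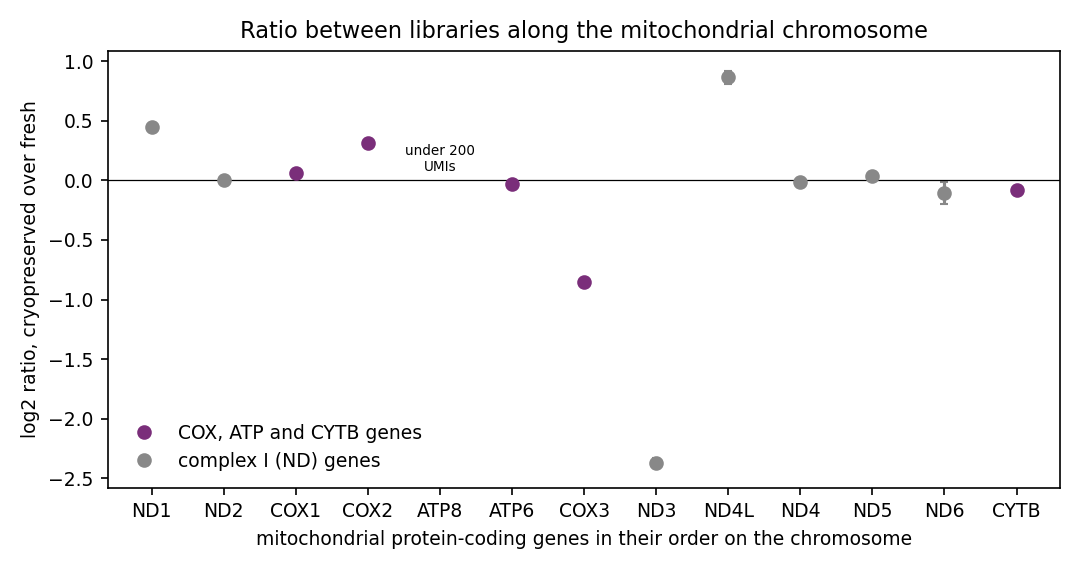
Log2 ratio, cryopreserved over fresh, over all filtered cells (y axis) for the mitochondrial protein-coding genes in their order on the chromosome (x axis), with the COX, ATP and CYTB genes in purple, complex I genes in grey and 95% counting intervals as bars. COX3 (-0.85) and ND3 (-2.37) lie next to each other below all others, and ATP8 is left out because it had under 200 UMIs.

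To see how the difference was spread over cells, the part of COX3 in the UMIs of COX2 and COX3 was computed in each cell with at least 20 UMIs of the pair. Of the 5 abundant genes COX2 had the highest log2 ratio (0.31), so its higher level adds to any difference in this part. The part is therefore not a measure of COX3 alone. The median was 47.1% over 2728 fresh cells and 28.3% over 4140 cryopreserved cells. The central 90% of cells ran from 36.7 to 57.3% in the fresh library, against 17.7 to 41.2% in the cryopreserved library. The 2 distributions overlapped in part. Of the cryopreserved cells, 98.6% lay below the fresh median and 87.5% below 36.7%, the lower end of the fresh central 90%. Of the fresh cells, 0.367% lay below the cryopreserved median and 16.6% below 41.2%, the upper end of the cryopreserved central 90%. The distribution of the cryopreserved library as a whole thus lay lower. No cell was measured in both states, so a change within cells was not tested.

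**Figure D3:**
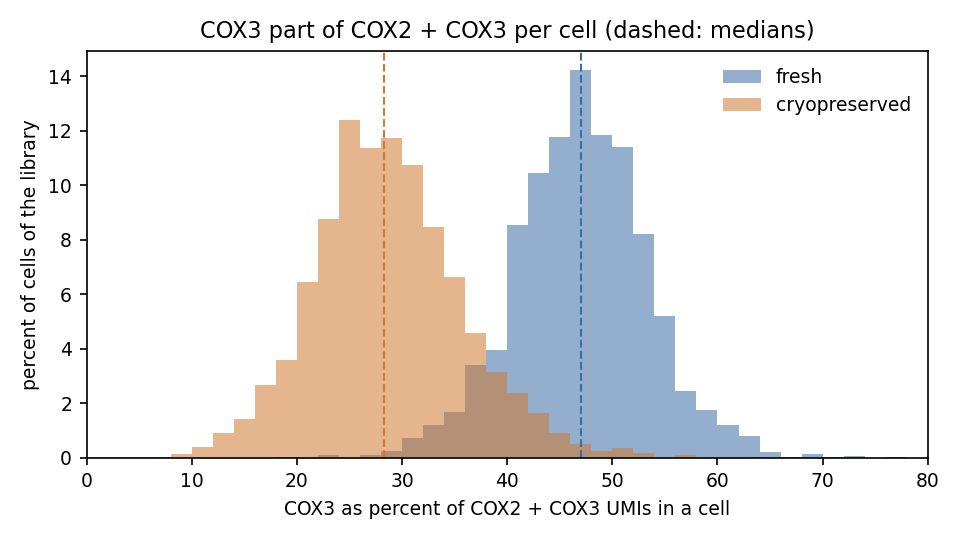
COX3 as percent of COX2 + COX3 UMIs in a cell (x axis, bins of 2 points) against the percent of cells of that library (y axis), for 2728 fresh cells (blue) and 4140 cryopreserved cells (orange). The dashed medians are at 47.1% and 28.3%.

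The same part was found in the barcodes that the filter removed. Among barcodes over the mitochondrial limit, 1004 fresh and 446 cryopreserved, the median was 46.0% and 27.5%, and among those over a gene or UMI maximum it was 47.8% and 29.5%. In these barcodes over the mitochondrial limit the 6 genes made up 25.04% of fresh and 15.98% of cryopreserved UMIs. COX3 alone was at 5.50% and 1.99% there. When cells over the mitochondrial limit were kept, the summed level was 4.46% fresh and 3.23% cryopreserved, and its log2 ratio went from -0.060 to -0.47. The summed level therefore depended on the limit, and so did the level of COX3, whose log2 ratio went from -0.85 to -1.26. The part of COX3 in COX2 and COX3 moved little. Both genes count toward the limit, so it bears on them alike and does not test this part.

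Depth moved with the libraries (medians of 11017 and 7945 UMIs), and the 6 genes took a smaller share of deeper cells. Over all filtered cells, Spearman's rho between a cell's UMIs and the share of the 6 genes was -0.30 in 2775 fresh and -0.40 in 4223 cryopreserved cells, a description of cells that share a library and whose UMIs are in the denominator. The cells of both libraries were therefore split by depth at common limits into 4 sets of like size. COX3 was lower in the cryopreserved library in each of the 4, with log2 ratios of -0.92, -0.77, -1.02 and -1.03 from the shallowest to the deepest. COX2 was higher in each of the 4, by 0.078 to 0.38. COX1 was higher in the shallower sets (0.13 and 0.087) and lower in the deeper ones (-0.098 and -0.20). The summed level did not keep its ratio, which was -0.072, 0.0071, -0.24 and -0.28 in the same order.

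The parts of COX3 and COX2 also kept their difference across mitochondrial load. From cells with up to 2% mitochondrial UMIs to barcodes with over 20%, COX3 gave 18.6 to 19.7% of mitochondrial UMIs in the fresh library, against 10.5 to 12.6% in the cryopreserved library. COX2 gave 21.1 to 22.0% and 26.3 to 28.9%. No load bin of one library reached the values of the other for either gene. Both are parts of one sum, so the lower part of COX3 by itself raises that of COX2. For COX1 the ranges overlapped, with 14.8 to 17.6% fresh and 16.7 to 18.7% cryopreserved. Spearman's rho between the cells of a library, all classes pooled, was 0.90 (fresh) and 0.86 (cryopreserved) for the shares of COX2 and COX3. For the shares of COX1 and CYTB it was 0.57 and 0.60. A cell's UMIs are the common denominator of these shares. Within classes, COX2 and COX3 had 0.56 and 0.53 in mast-like cells, and COX1 and CYTB 0.40 and 0.34 in mural-like cells. In fibroblast-like cells the same pairs had 0.93 and 0.87, and 0.81 and 0.82.

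Cells were next placed in lineages. Clustering of the integrated libraries without the 13 mitochondrial genes gave 24 clusters, of which 20 were named by markers into 9 classes, and 404 cells stayed in unnamed clusters. These names were rebuilt here and may differ from those of the study. The largest unnamed cluster, 72 fresh and 144 cryopreserved cells, had the T or NK marker CD3E among its top 10 genes. It had 2 raised markers where 3 were needed, so the values of T or NK-like cells leave these cells out. In the fresh library the summed level of the 6 genes was highest in keratinocyte-like cells (3.97%), the epithelial cells of the epidermis and hair follicle. It was 3.77% in T or NK-like and 3.54% in mast-like cells. Langerhans or other dendritic-like cells, which present antigen, followed at 3.48%, with a counting interval that overlapped that of mast-like cells. Blood endothelial-like cells were at 3.17% and CD163/CD209 myeloid-like cells at 2.83%. The lowest levels were in fibroblast-like (2.53%), lymphatic-like (2.53%) and mural-like cells (2.48%), of which only fibroblast-like and mural-like cells had intervals that did not overlap. The range from the highest to the lowest class was 1.60-fold, which was small beside the spread of single cells, whose central 90% in fibroblast-like cells ran from 0.87 to 6.85%.

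In the cryopreserved library the order was mast-like (4.18%), keratinocyte-like (4.09%), Langerhans or other dendritic-like (3.69%), T or NK-like (3.57%), blood endothelial-like (3.36%), lymphatic-like (2.78%), mural-like (2.70%), CD163/CD209 myeloid-like (2.22%) and fibroblast-like cells (2.05%). The counting intervals of neighbours in this order did not overlap, though those of mast-like and keratinocyte-like cells nearly touched (4.104 to 4.258% and 4.077 to 4.102%). They leave out the spread between cells, so the order describes the pooled UMIs of these libraries alone. The range widened to 2.04-fold. Keratinocyte-like cells were near the top and fibroblast-like cells near the bottom in both libraries.

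**Figure D4:**
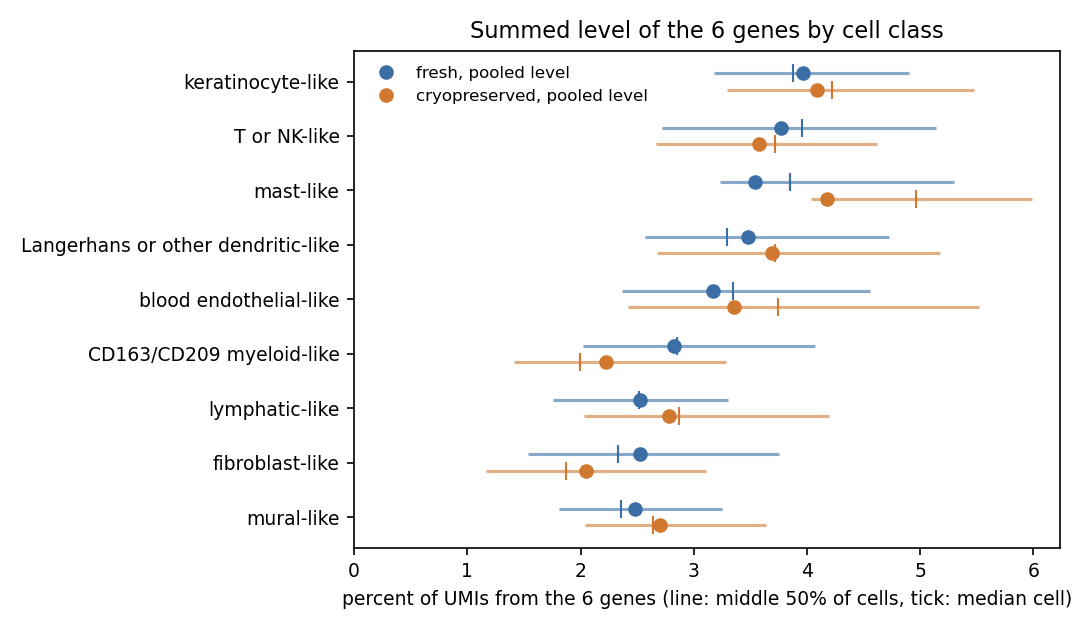
Summed level of the 6 genes in each named cell class, as percent of UMIs (x axis), in the fresh (blue) and cryopreserved (orange) libraries, with points for the pooled level, ticks for the median cell and lines for the middle 50% of cells. Pooled levels run from 2.48 to 3.97% in the fresh library, against 2.05 to 4.18% in the cryopreserved library, and the lines of neighbouring classes overlap.

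The summed level was higher in the cryopreserved library in 6 of the 9 classes and lower in 3. The largest ratios were in mast-like cells (log2 0.24, interval 0.20 to 0.28) and lymphatic-like cells (0.14, interval 0.11 to 0.17). The lowest were in CD163/CD209 myeloid-like cells (-0.35, interval -0.37 to -0.33), fibroblast-like cells (-0.31, interval -0.31 to -0.30) and T or NK-like cells (-0.078, interval -0.11 to -0.051). Mural-like (0.12), Langerhans or other dendritic-like (0.086), blood endothelial-like (0.084) and keratinocyte-like cells (0.043) lay between. When cells over the mitochondrial limit were kept and clustered again, the value of keratinocyte-like cells turned to -0.38. The other values kept their signs, but the sizes of several and the order moved. They were 0.43 in mast-like, 0.099 in Langerhans or other dendritic-like, 0.047 in lymphatic-like, 0.044 in mural-like and 0.029 in blood endothelial-like cells. They were -0.067 in T or NK-like, -0.37 in CD163/CD209 myeloid-like and -0.45 in fibroblast-like cells. The median ratio of all genes in a class was at most 0.13 from 0, in lymphatic-like and T or NK-like cells. TMM scaling shifted ratios by at most 0.11, in myeloid-like cells, and left the 6 of 9 as they were. Median depth was lower in the cryopreserved cells of every class, by unlike amounts. It was 14856.5 fresh and 9697 cryopreserved UMIs in keratinocyte-like and 6699 and 3780 in lymphatic-like cells. In fibroblast-like cells it was 12784 and 10040, in CD163/CD209 myeloid-like cells 8458.5 and 7516, and in mast-like cells 2750.5 and 2438.5. Whether depth bears on the signs of the summed ratios was not tested.

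COX3 had its lower level in the cryopreserved cells of 9 of 9 classes, where 19.6% of the 271 genes measured in all 9 were lower throughout and 26.6% were higher throughout. In keratinocyte-like cells its level went from 0.881% to 0.517% (log2 -0.77), in fibroblast-like cells from 0.579% to 0.288% (-1.01) and in CD163/CD209 myeloid-like cells from 0.646% to 0.299% (-1.11). These 3 classes differ in lineage and in their total, and COX3 was lower in each. It went from 0.822% to 0.428% in T or NK-like cells (-0.94), from 0.494% to 0.280% in mural-like cells (-0.82) and from 0.782% to 0.449% in Langerhans or other dendritic-like cells (-0.80). The endothelial classes, which line blood and lymph vessels, were much alike, with 0.662% and 0.388% in blood endothelial-like cells (-0.77) and 0.559% and 0.329% in lymphatic-like cells (-0.76). Mast-like cells had the smallest ratio, from 0.883% to 0.647% (-0.45, interval -0.54 to -0.36). All the counting intervals lay below 0.

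COX3 was past 0.5 in size in 8 of these 9 classes. The share of all measured genes past 0.5 in size was 8.8% in keratinocyte-like, 9.25% in mural-like, 12.5% in blood endothelial-like, 14.7% in fibroblast-like and 18.8% in Langerhans or other dendritic-like cells. It was 20.4% in lymphatic-like, 22.9% in CD163/CD209 myeloid-like, 23% in mast-like and 27.1% in T or NK-like cells. Beside COX3, COX2 in mast-like and lymphatic-like cells was the only abundant member past 0.5 in any class. COX3 was also lower in each of the 23 clusters in which it had UMIs in both libraries, by 0.45 to 1.24 on the log2 scale. All unnamed clusters but the one with HBB were among them. The cluster with HBB went the other way, with 0 COX3 UMIs in its 3 fresh cells and a counting interval above 0. The clusters divide the same 2 libraries, and the share of all genes that were lower in every cluster is not given here.

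As a part of the COX2 and COX3 UMIs of single cells, COX3 had medians from 42.3% (mural-like) to 51.8% (mast-like) among fresh cells and from 23.3% (mural-like) to 34.5% (mast-like) among cryopreserved cells. The same classes stood at the ends in both. The difference between the libraries was of like size in all 9, from 17.3 points in mast-like to 21.7 points in T or NK-like cells. This holds for the part, which joins COX3 with COX2, and the levels were less even. The log2 ratio of COX3 was -0.45 in mast-like and -1.11 in CD163/CD209 myeloid-like cells, and that of COX2 was 0.67 and -0.022. At least 97.5% of the cryopreserved cells of every class lay below the fresh median of that class.

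COX2 was higher in the cryopreserved library in 8 of 9 classes. The share of all genes that were higher in as many classes was not counted. The level of COX2 went from 0.816% to 1.30% in mast-like cells (log2 0.67, interval 0.59 to 0.75). In lymphatic-like cells it went from 0.578% to 0.853% (0.56). In keratinocyte-like cells it went from 0.989% to 1.33% (0.42), and in fibroblast-like cells from 0.640% to 0.665% (0.057). CD163/CD209 myeloid-like cells were the exception at 0.721% and 0.710% (-0.022, interval -0.058 to 0.013), a value that turned to 0.088 under TMM scaling. As a part of mitochondrial UMIs, COX2 was higher in all 9 classes, with 18.5 to 22.5% fresh and 25.5 to 29.4% cryopreserved, ranges that did not overlap. Lower parts of COX3 and ND3 by themselves raise this part, so it does not show a higher level of COX2.

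COX1 was higher in the cryopreserved library in 7 of 9 classes, ATP6 in 6 and CYTB in 6, and none of them passed 0.5 in any class. The share of all genes that were higher in as many classes was not counted, so these counts do not set the members apart. In all 9 classes, 26.6% of the 271 genes measured there were higher and 19.6% lower. For COX1, ATP6 and CYTB, CD163/CD209 myeloid-like and fibroblast-like cells were the classes with log2 ratios under -0.1, from -0.19 to -0.31. The highest ratios were those of COX1 (0.39) and ATP6 (0.37) in mast-like cells and of CYTB (0.23) in lymphatic-like cells. ATP6 in T or NK-like cells was at 0.821% in both libraries, and TMM scaling turned its sign. Cells of 1 class come from 1 library per condition, so classes are not replicates of the condition.

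**Figure D5:**
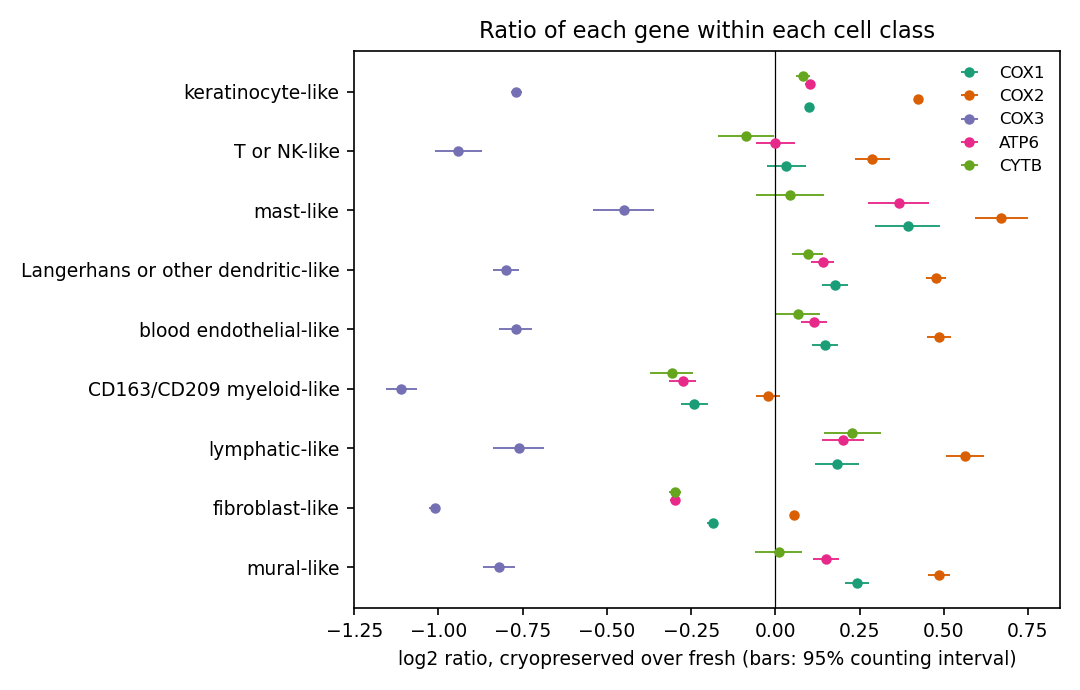
Log2 ratio, cryopreserved over fresh (x axis), of the 5 abundant genes within each of the 9 named classes (y axis), with 95% counting intervals as bars. COX3 lies between -1.11 and -0.45 in every class, COX2 lies to the right of the other genes in each, and COX1, ATP6 and CYTB lie between -0.31 and 0.39.

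The classes also differed in the make-up of the 6 genes, in both libraries alike. CYTB gave 13.5% of mitochondrial UMIs in fresh mast-like cells and 12.1% in cryopreserved ones. In mural-like cells it gave 5.97% and 5.47%. COX1 had the reverse order in this pair, with 13.2% and 15.1% in mast-like and 21.8% and 23.4% in mural-like cells, the contractile cells around vessels. CYTB had the widest range of level of the 5 abundant genes, 3.47-fold over the fresh classes and 3.55-fold over the cryopreserved ones, against 1.49-fold and 1.94-fold for ATP6. The share of mitochondrial UMIs taken by the 6 genes together was lowest in mast-like cells, 80.1% and 82.2%, and between 84.1 and 87.4% in every other class and library.

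The nuclear partners of the 6 genes did not follow COX3. Of the nuclear complex IV list, 13 of 16 genes had 200 UMIs or more, of which 12 had a higher and 1 a lower level in the cryopreserved library, and 2 were higher by at least 0.5, as were 6.9% of all genes measured. The median log2 ratio was 0.37, that of COX4I1, the largest nuclear subunit, and the ends were NDUFA4 (0.56) and COX7A2L (-0.079). Over all 11692 genes the median was -0.0088, and 51.5% of them had a ratio below that of ND2 (0.0060). Higher and lower genes were thus near equal in number. All 8 measured genes of the complex III list were higher, with a median of 0.33, from UQCRC2 (0.12) to UQCRQ (0.52), and with UQCR10 (0.32) at the middle. UQCRQ was the only one past 0.5, where 6.9% of all genes measured were higher by as much. The list also holds CYCS (0.45), the gene of cytochrome c, which is not a subunit of complex III. All 14 measured genes of the nuclear ATP synthase list were higher, with a median of 0.33, from ATP5F1B, which encodes the catalytic beta subunit (0.0036), to ATP5MC3 (0.64), and with ATP5F1D (0.30) at the middle. In this list 4 of the 14 genes passed 0.5, beside 6.9% of all genes measured.

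The assembly factors of complex IV, which insert its copper and haem and join its subunits, gave 15 measured genes of 23. Of these, 11 were higher and 4 lower, none past 0.5, where 13.1% of all genes measured passed 0.5 in size. The median was 0.20, that of CMC1, and the ends were COX18 (-0.18) and PET100 (0.44). Of the genes for mitochondrial RNA synthesis, processing and stability, 14 of 20 were measured, with 9 higher and 5 lower. In this list 1 gene was higher by at least 0.5, as were 6.9% of all genes measured. The median of the list was 0.15, that of FASTKD1, and the ends were SUPV3L1, a helicase of the RNA degrading complex (-0.31), and HSD17B10, a subunit of the enzyme that cuts the 5′ ends of tRNAs (0.53). Summed within classes, the nuclear complex IV list was higher in the cryopreserved library in all 9 named classes, by 0.22 to 0.49 on the log2 scale, while COX3 was lower in each. Of the 271 single genes measured in all 9, 26.6% were higher throughout and 19.6% lower throughout. The summed RNA list was higher in Langerhans or other dendritic-like (0.25), keratinocyte-like (0.15) and fibroblast-like cells (0.094). It was lower in blood endothelial-like (-0.29, interval -0.52 to -0.065) and mast-like cells (-0.62, interval -1.14 to -0.10). In the remaining classes it lay between -0.12 and -0.036, with counting intervals that included 0.

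Across the 18 profiles of 9 classes and 2 libraries, the genes outside the mitochondrial 13 whose log2(CPM + 1) was most like that of the 6 summed, out of 11680, were RNF138 (Pearson's r 0.88), TMPRSS13 (0.82), ENSSSCG00000001930 (0.82), PAPOLG (0.81) and GALNT3 (0.80). The profiles of a library share that library, and these values describe the 18 profiles alone.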

How the data were processed

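The authors mapped the reads with Cell Ranger 4.0.0 and STAR 2.5.1b to Sscrofa11.1 and its Ensembl annotation. They deposited UMI counts by gene and barcode for both libraries, not normalized. Whether a read in the stretch shared by ATP8 and ATP6 was counted is not given in the sources used here. From these deposited counts, cells were filtered by the study's maxima (4500 genes, 30000 UMIs, 10% mitochondrial), with the 13 protein-coding genes of chromosome MT as the mitochondrial set. No doublet caller was applied beyond the maxima and any sort gate. Seurat 5.3.0 integrated and clustered the libraries (2000 features without the 13 genes, 30 dimensions, resolution 0.8). A cluster was named when at least 3 markers of a class were found in 10% of its cells and were 2-fold higher. Basal and differentiated keratinocyte lists were joined after the clusters were seen.

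Levels were summed per library and class and scaled to total UMIs. Ratios carry exact conditional binomial intervals, whose script recovered known ratios on simulated data. The simulated counts had Poisson error only, so they check the calculation and not the spread between cells or libraries. With 1 library per condition no test across samples was made, and the counts of genes past 0.5 (log2) describe sizes. The genes named are the 6 members, the lowest, median and highest of each list, and the 5 genes most like the summed pattern. Members and lists were chosen with earlier results of these data known. Alternatives used edgeR 4.0.16, DESeq2 1.42.0 and Scrublet in scanpy 1.11.5. Sequences are from RefSeq.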

Additional observations from a re-analysis of the deposited data

Results flagged for a closer look

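Some genes had log2 ratios, cryopreserved over fresh, whose counting intervals lay above 0 in one cell class and below 0 in another, and the difference between the classes was not tested. For the 6 genes summed, mast-like cells were at 0.24 and CD163/CD209 myeloid-like cells at -0.35. For COX1 the same classes were at 0.39 and -0.24. ATP6 was at 0.37 in mast-like and -0.30 in fibroblast-like cells, and CYTB at 0.23 in lymphatic-like and -0.31 in CD163/CD209 myeloid-like cells. The median cell of the mast-like class had 2751 fresh and 2439 cryopreserved UMIs, the lowest depth of the 9 classes.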

How the results depend on the processing

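The lower COX3 level kept its direction under all 10 alternatives, and its count of 9 of 9 classes under all 5, but its size moved: the log2 ratio was -1.26 without the mitochondrial limit, -1.07 over all deposited barcodes, -0.90 with a limit of 5%, -0.81 under TMM and -0.81 under DESeq2 size factors, -0.80 as a mean over cells and -0.88 with the fresh class shares in both libraries. The summed ratio of -0.060 was -0.47, -0.28, -0.12, -0.021, -0.017 and -0.094 in the same order without the mean over cells, which turned it to 0.0089, and it was -0.055 without the 6% of cells with the highest Scrublet scores (167 fresh, 254 cryopreserved). The difference in the share of mitochondrial UMIs, -0.00446 points, was -0.102 without the limit, -0.266 with 5% and -0.199 as a mean over cells. COX1 turned from 0.065 to -0.36 without the limit, -0.17 over all barcodes and -0.028 with 5%, and COX2 from 0.31 to -0.10 without the limit. ATP6 turned from -0.030 to 0.0088 under TMM, 0.013 under DESeq2 and 0.047 as a mean over cells. Without the limit ATP6 went to -0.43, and CYTB went from -0.081 to -0.46. Without the limit and clustered again, the summed ratio of keratinocyte-like cells turned from 0.043 to -0.38. The count of classes with a higher sum, 6 of 9, was 5 or 6. Leaving out the shared barcodes and repeating the COX3 class count were chosen after seeing the data. The limit acts on the genes themselves, and otherwise the cause of these changes was not tested. No paired analysis was possible because there was 1 library per condition.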
